A study of Mus musculus with 8 samples.

Results

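Regions of the mouse genome that held both Brg1 and Snf2h in both libraries of each, but CHD4 in no more than 1 of its 2 libraries, were examined in the 3134 murine mammary epithelial line. Chromatin immunoprecipitation sequencing had been done on untreated cells, with 2 libraries each for Snf2h, for Brg1 (a monoclonal antibody) and for CHD4, and each library came with a separate deposited list of hotspots, which are intervals of the genome where its tags were enriched. Hotspots of all 6 lists that overlapped by at least 1 bp were merged into 532751 regions. A hotspot of both Snf2h lists and both Brg1 lists was present in 12602 of them. Of these, 2160 regions (17.1%, 95% Wilson interval 16.5% to 17.8%) lacked replicated CHD4, and 10442 had both CHD4 lists. The calls in these same lists chose the regions, so the counts describe the choice and were not tested. All libraries come from 1 cell line, and the labels do not say whether replicates are separate cultures, so the spread between them may be technical.

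Brg1, Snf2h and CHD4 are the ATPase motors of different chromatin remodelers. Brg1 drives SWI/SNF complexes, which slide and evict nucleosomes and open enhancers and promoters. Snf2h drives ISWI complexes, which slide nucleosomes into evenly spaced arrays and are known to keep arrays phased around bound CTCF. CHD4 is the motor of NuRD, a complex that also carries histone deacetylases and is mostly known for repression, although it is found at active enhancers as well.

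The lists held 32310 and 79969 hotspots for Snf2h, 115361 and 260036 for Brg1, and 39797 and 293135 for CHD4, and their score limits differed. The lowest Z score was 8.77 in CHD4 replicate 1 and 2.00 in CHD4 replicate 2. Z scores of different libraries are not known to share a scale. Whether these limits bear on which regions were chosen was not tested. How many tags each library had cannot be read from the lists, and the DNA inputs were not analysed here. Coordinates are on mm9. Sequence and gene annotation of that build were not used here, so no gene is named at any region.

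Most of these regions were not free of CHD4 hotspots. A hotspot of CHD4 replicate 2 alone was present at 1819 of the 2160 (84.2%, 82.6% to 85.7%), and one of CHD4 replicate 1 alone at 172 (7.96%). The remaining 169 (7.82%, 6.76% to 9.03%) had no CHD4 hotspot of either library. Those 169 made up 1.34% of the 12602 regions with both Snf2h and both Brg1 lists. The deciding library was usually CHD4 replicate 1. Without it, 342 regions had no hotspot in CHD4 replicate 2, and without CHD4 replicate 2, 2013 had none in replicate 1. Requiring a single library of the other remodelers also moved the total, to 9024 without Snf2h replicate 1 and to 4013 without Brg1 replicate 1. The number with no CHD4 hotspot moved with every library left out: it was 1189 and 322 without Snf2h replicate 1 and 2, 551 and 260 without Brg1 replicate 1 and 2, and 342 and 2013 without CHD4 replicate 1 and 2. At a common Z score of 9.49 in all lists it was 590, of 2597 regions without replicated CHD4.

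Where only CHD4 replicate 2 was called, its hotspots were lower than at regions with both CHD4 lists. The maximum tag density in that library had a median of 8.40 (quartiles 6.18 and 11.4) at the 1819 regions, against 13.6 (9.64 and 19.0) at the 10442, in the authors' units. The ranges overlapped, from 1.98 to 28.4 against 1.98 to 280. The tallest CHD4 replicate 2 hotspot of a region without replicated CHD4 stood at a median percentile of 89.98 in the full list of that library. For CHD4 replicate 1 the median was 36.7 in its own list. These lists hold 293135 and 39797 hotspots, with lowest Z scores of 2.00 and 8.77, so the percentiles cannot be set against each other. Neither percentile was computed for regions with both CHD4 lists, so whether it is particular to these regions is not known. The Z score of CHD4 replicate 2 had a median of 9.55 at the 1819 regions and 16.3 at the 10442. It reached 8.77, the lowest score that CHD4 replicate 1 lists, at 1020 of the 1819 (56.1%, 53.8% to 58.3%), against 86.4% of the 10442. The 172 regions with CHD4 replicate 1 alone had a median density of 11.8 in that library, against 20.1 at regions with both CHD4 lists. The range there was 2.77 to 25.3, against 3.12 to 425. The CHD4 lists themselves set these groups apart, so the differences in CHD4 values describe the choice and were not tested.

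Snf2h and Brg1 hotspots were also lower at these regions, and the gap was wider for Brg1. Maximum density in Snf2h replicate 1 had a median of 17.3 (quartiles 13.9 and 21.5) without replicated CHD4, against 20.1 (15.2 and 27.01) with both CHD4 lists. In Snf2h replicate 2 the medians were 22.0 (13.5 and 32.4) and 27.9 (17.97 and 43.03). In Brg1 replicate 1 they were 26.6 (18.5 and 41.1) and 47.5 (28.95 and 77.02). In Brg1 replicate 2 they were 10.4 (6.80 and 15.5) and 21.8 (13.6 and 41.7). The quartile ranges of both kinds of region overlapped in all 4 libraries. The values are on the scale of each library and cannot be set against those of another, so they were ranked among the 12602 regions.

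On those ranks the median percentile at regions without replicated CHD4 was 38.3 and 37.5 in Snf2h replicates 1 and 2, and 26.2 and 20.7 in Brg1 replicates 1 and 2. At regions with both CHD4 lists it was 53.8 and 52.6 in the Snf2h libraries, and 55.7 and 56.9 in the Brg1 libraries. The differences were -15.5 and -15.1 percentile points for Snf2h and -29.5 and -36.2 for Brg1, with a mean of -24.1 over the 4 libraries. All 4 had the same sign, and an exact sign-flip permutation over libraries gave a two-sided p of 0.125, the smallest that 4 libraries allow. The Snf2h difference averaged -15.3 and the Brg1 difference -32.9, which is 17.6 points apart (exact permutation over the 6 splits of 4 libraries, two-sided p = 0.333). Within the regions without replicated CHD4, the Snf2h percentile was above the Brg1 percentile by 14.4 points as the difference of library means. The exact permutation p was again 0.333, the smallest that 6 splits allow, so none of these comparisons could pass 0.05. The ranks cover both kinds of region, so the 14.4 points are not independent of the 17.6 points. They do not compare amounts of Snf2h and Brg1. The 14.4 points became 7.47 without Snf2h replicate 1 and 9.51 without Brg1 replicate 2. Without Snf2h replicate 1, a split that set a Brg1 library apart from the rest gave a difference at least as large.

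The 169 regions with no CHD4 hotspot lay lower still. Their median percentiles were 22.0 and 15.01 in the Snf2h libraries and 12.2 and 6.46 in the Brg1 libraries. The 172 regions with CHD4 replicate 1 alone were close to them, at 25.98 and 22.1 for Snf2h and 12.7 and 8.63 for Brg1. The 1819 regions with CHD4 replicate 2 alone were higher, at 38.3 and 41.8 for Snf2h and 30.0 and 22.9 for Brg1. The order of these 3 kinds was the same in all 4 libraries, with wide overlap of their quartiles. The tallest Snf2h and Brg1 hotspots of all these regions together stood above the middle of their full lists. The regions were chosen for a hotspot in all 4 of these lists, and the same value was not computed for regions with both CHD4 lists. Whether it is a trait particular to them is therefore not known. The median percentile of the tallest hotspot in regions without replicated CHD4 was 64.9 and 79.7 in the Snf2h lists and 74.1 and 86.2 in the Brg1 lists.

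**Figure D1:**
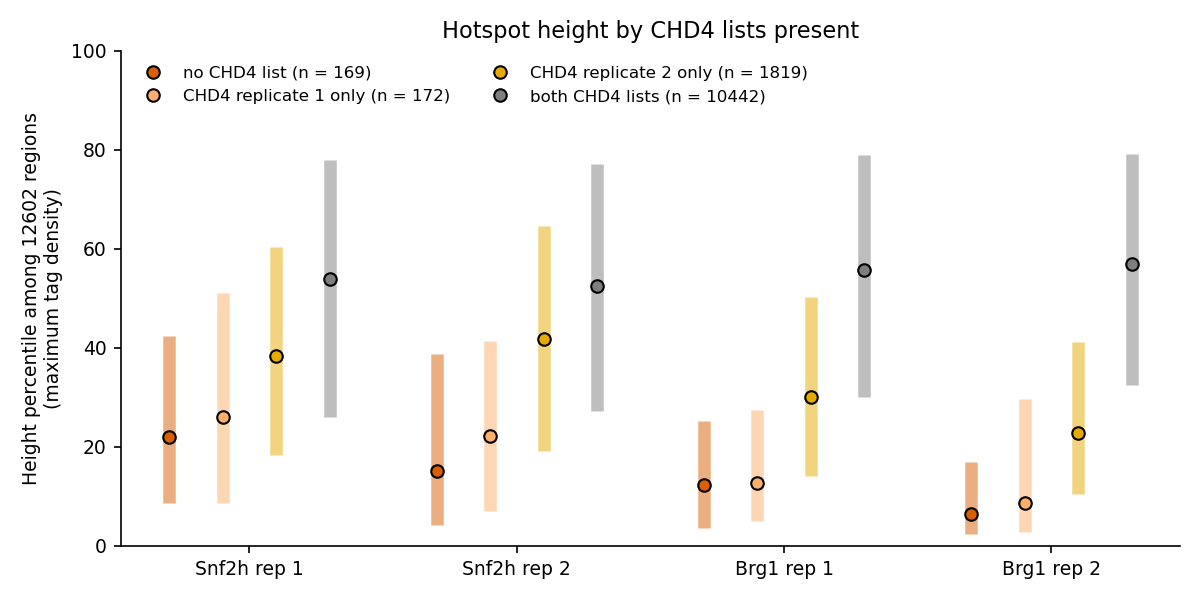
Height percentile of maximum tag density (vertical axis) in each Snf2h and Brg1 library among the 12602 regions with all 4 lists. Points are medians and bars run from the lower to the upper quartile; in Brg1 replicate 2 the median was 6.46 with no CHD4 hotspot and 56.9 with both CHD4 lists.

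The share of regions without replicated CHD4 was lower where hotspots were taller, and more so by Brg1 height than by Snf2h height. Regions were ranked by the mean percentile of both libraries of a remodeler. In the lowest decile of Snf2h height 29.4% (27.0% to 32.0%) lacked replicated CHD4, and in the highest decile 3.65% (2.75% to 4.84%). By Brg1 height the share was 46.2% (43.4% to 48.9%) in the lowest decile and 0.159% (0.0435% to 0.577%), or 2 of 1260 regions, in the highest. From the third to the sixth decile of Snf2h height the share stayed between 17.1% and 21.0%, while by Brg1 height it was 25.4% in the third and 13.5% in the sixth. Regions with no CHD4 hotspot were concentrated at low Brg1 height: 96 of the 169 were in the lowest Brg1 decile, and 68 were in the lowest Snf2h decile. The intervals cover counting error only, and neighbouring regions are not independent.

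**Figure D2:**
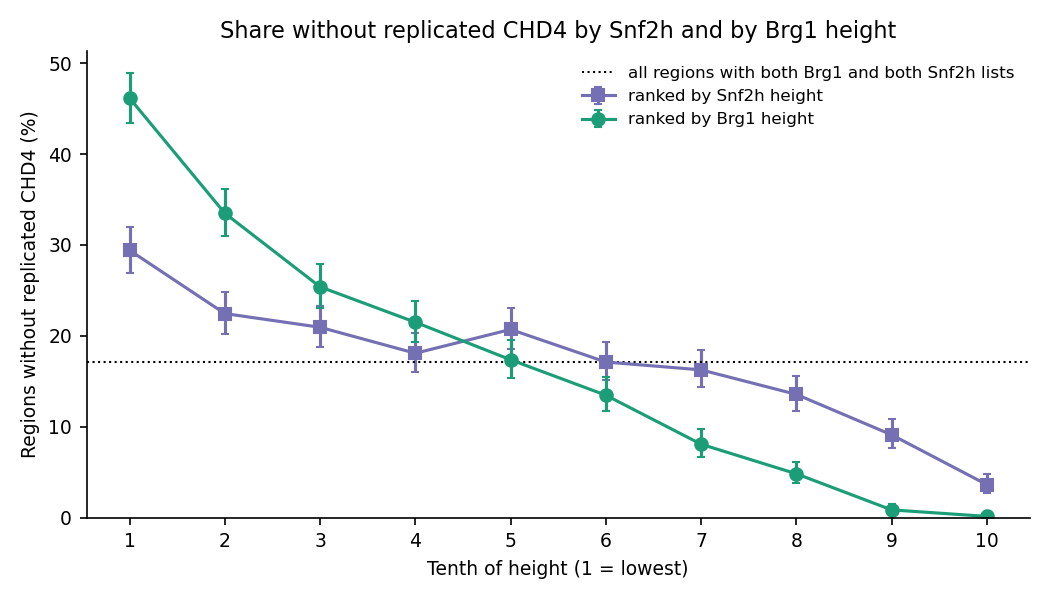
Percentage of regions without replicated CHD4 (vertical axis) in deciles of Snf2h height and of Brg1 height (horizontal axis), with 95% Wilson intervals. The dotted line is the share over all 12602 regions, 17.1%; the Brg1 curve starts at 46.2% and ends at 0.159%, and the Snf2h curve starts at 29.4% and ends at 3.65%.

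Sorting by both heights at once kept the fall with Brg1 height at every level of Snf2h height. The fall with Snf2h height was not kept at every level of Brg1 height. Among regions in the lowest quintile of Brg1 height, the share without replicated CHD4 was 49.5% (440 of 888) where Snf2h was also in its lowest quintile and 15.8% (32 of 202) where Snf2h was in its highest. In the highest quintile of Brg1 height it was 0 of 307 and 0.830% (4 of 482) at the same ends of Snf2h height, and 13 of all 2520 such regions lacked replicated CHD4. By the limit of 3 counts that a count of 0 allows, 0 of 307 leaves room for a share of up to 0.977%, and the upper Wilson bound was 1.24%. In the middle Brg1 quintile the share did not fall evenly with Snf2h height: it was 13.4% in the lowest Snf2h quintile, 21.2% in the middle one and 7.47% in the highest. In the fourth Brg1 quintile it rose from 5.32% in the lowest Snf2h quintile to 9.89% in the fourth, and was 4.46% in the highest. At every quintile of Snf2h height the share was higher in the lowest Brg1 quintile than in the highest, as a description of these lists. In the highest Snf2h quintile the share at lowest Brg1 height, 15.8%, was still under the 17.1% over all regions with these 4 lists.

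At single regions the order of Snf2h and Brg1 was compared by asking where both libraries of one stood above both of the other. Both Snf2h percentiles exceeded both Brg1 percentiles at 881 of the 2160 regions (40.8%, 38.7% to 42.9%), against 31.9% (31.0% to 32.8%) of regions with both CHD4 lists; over all 12602 regions it was 33.4%. The reverse order, both Brg1 above both Snf2h, held at 256 (11.9%, 10.6% to 13.3%), against 35.8% (34.9% to 36.7%) with both CHD4 lists and 31.7% over all. Regions with no CHD4 hotspot were above in Snf2h at 39.6% and in Brg1 at 14.8%, against 40.9% and 11.6% of those with 1 CHD4 list, and the intervals overlapped. The scarcity of the Brg1-high order held at every level of mean height. In the lowest quintile of mean height Brg1 stood above at 14.1% of the regions without replicated CHD4, against 23.8% of those with both lists. In the highest quintile it did so at 4 of 59 (6.78%, 2.67% to 16.2%), against 40.3%. Snf2h stood above at 36.2% in the lowest quintile, against 25.0%, and at 54.2% in the highest, against 37.5%. The check by mean height was chosen after the overall shares had been seen.

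**Figure D3:**
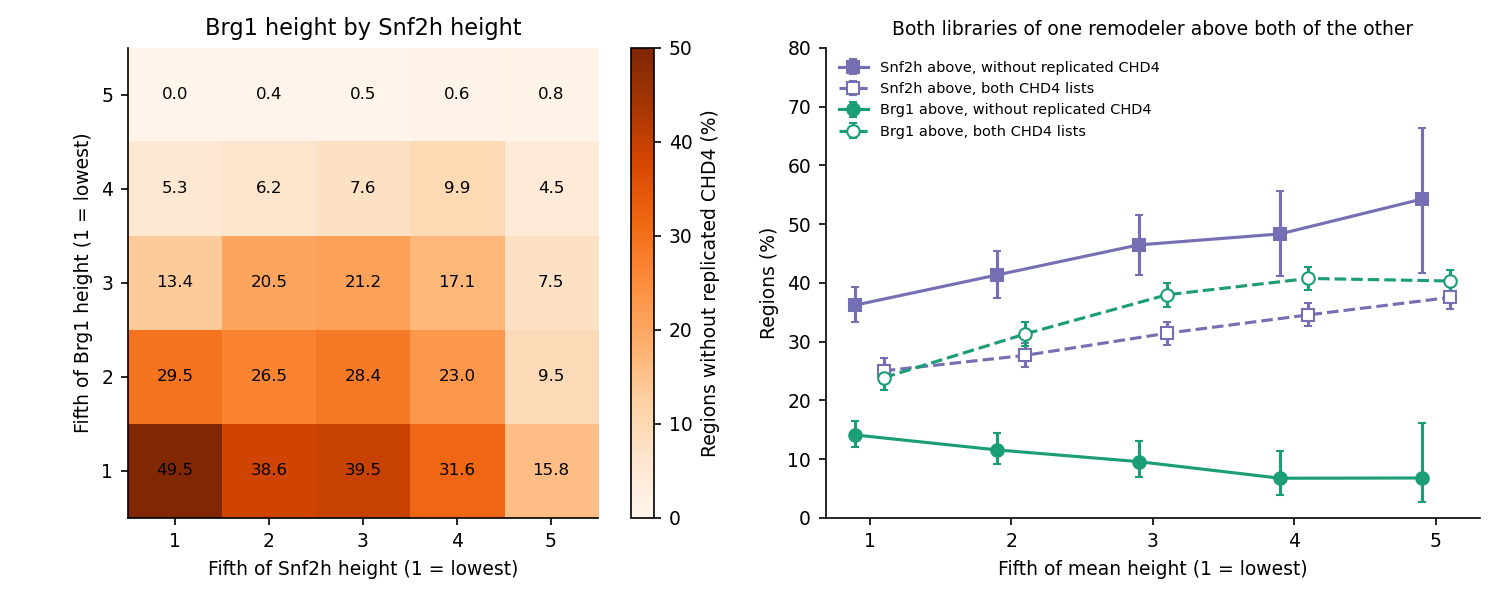
Left, percentage of regions without replicated CHD4 by quintile of Snf2h height (horizontal) and Brg1 height (vertical), from 49.5% at the low corner to 0.830% at the high corner. Right, percentage of regions in which both libraries of one remodeler exceeded both of the other, by quintile of mean height with 95% Wilson intervals; filled symbols are regions without replicated CHD4, and their Brg1 curve lies below all others, from 14.1% to 6.78%.

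Across the regions, heights of Snf2h and Brg1 also followed each other more closely where replicated CHD4 was missing. Spearman's rho between a Snf2h and a Brg1 library was 0.260 to 0.447 over the 2160 regions, against -0.0420 to 0.209 over the 10442. Between replicates it was 0.575 for Snf2h and 0.595 for Brg1 without replicated CHD4, against 0.653 and 0.768 with both CHD4 lists. At the 1819 regions with CHD4 replicate 2 alone, the height of that CHD4 hotspot had rho of 0.372 and 0.434 with the Snf2h libraries and 0.447 and 0.548 with the Brg1 libraries. These correlations are across regions of shared libraries, in sets that differ in their range of height, and are given as descriptions.

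The regions were narrower than those with both CHD4 lists, and most had hotspots on top of each other. Regions without replicated CHD4 had a median width of 1021 bp (quartiles 707 and 1535), against 1500 bp (1057 and 2060) with both CHD4 lists. A merged region widens with every list it contains, so the span of the Snf2h and Brg1 hotspots alone was measured too, and its medians were 952 and 1379 bp. A CHD4 hotspot can still join separate Snf2h and Brg1 hotspots into a region, so the span also depends on the choice. Within quintiles of mean height that span was 790 against 1121 bp in the lowest quintile and 1231 against 1554 bp in the highest. Regions with no CHD4 hotspot had a median width of 667 bp (596 and 774) and none exceeded 1472 bp. Their median number of hotspots was 4, that is, 1 of each Snf2h and Brg1 list.

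A base covered by all 4 Snf2h and Brg1 lists was present in 1912 of the 2160 regions (88.5%, 87.1% to 89.8%) and in 92.9% of regions with both CHD4 lists. Its median length was 312 bp, against 414 bp. The other 248 regions were joined only by chains of overlapping hotspots. The midpoints of the tallest Snf2h replicate 2 and Brg1 replicate 2 hotspots were a median of 88.0 bp apart, against 126.5 bp with both CHD4 lists. Over the 4 pairings of a Snf2h with a Brg1 library the medians were 79.0 to 113 bp, and between the Snf2h replicates 74.0 bp, against 92.5 bp with both CHD4 lists. At the regions with no CHD4 hotspot, the distances between Snf2h and Brg1 libraries had medians between 55.0 and 77.5 bp.

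Merging makes a lone CHD4 hotspot touch a Snf2h or a Brg1 hotspot, so only contact with both is described. The hotspot of CHD4 replicate 2 overlapped both directly at 1804 of the 1819 regions where it was alone (99.2%), against 99.9% of regions with both CHD4 lists. With CHD4 replicate 1 alone, 169 of 172 (98.3%) overlapped both, against 99.4% for that library with both CHD4 lists. These shares are close to each other. Coverage was also read around the tallest Snf2h replicate 2 hotspot, where the choice of regions caps CHD4 replicate 2 at 84.2% and CHD4 replicate 1 at 7.96%. At its midpoint 96.6% of regions without replicated CHD4 were covered by a Brg1 replicate 2 hotspot, 86.4% by Brg1 replicate 1, 77.8% by CHD4 replicate 2 and 7.45% by CHD4 replicate 1. With both CHD4 lists these were 98.7%, 89.9%, 97.3% and 85.0%. At 500 bp to either side CHD4 replicate 2 covered 34.3% and 35.6%, against 58.0% and 58.1%, and Brg1 replicate 2 covered 39.4% and 39.6%, against 59.9% and 59.6%.

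**Figure D4:**
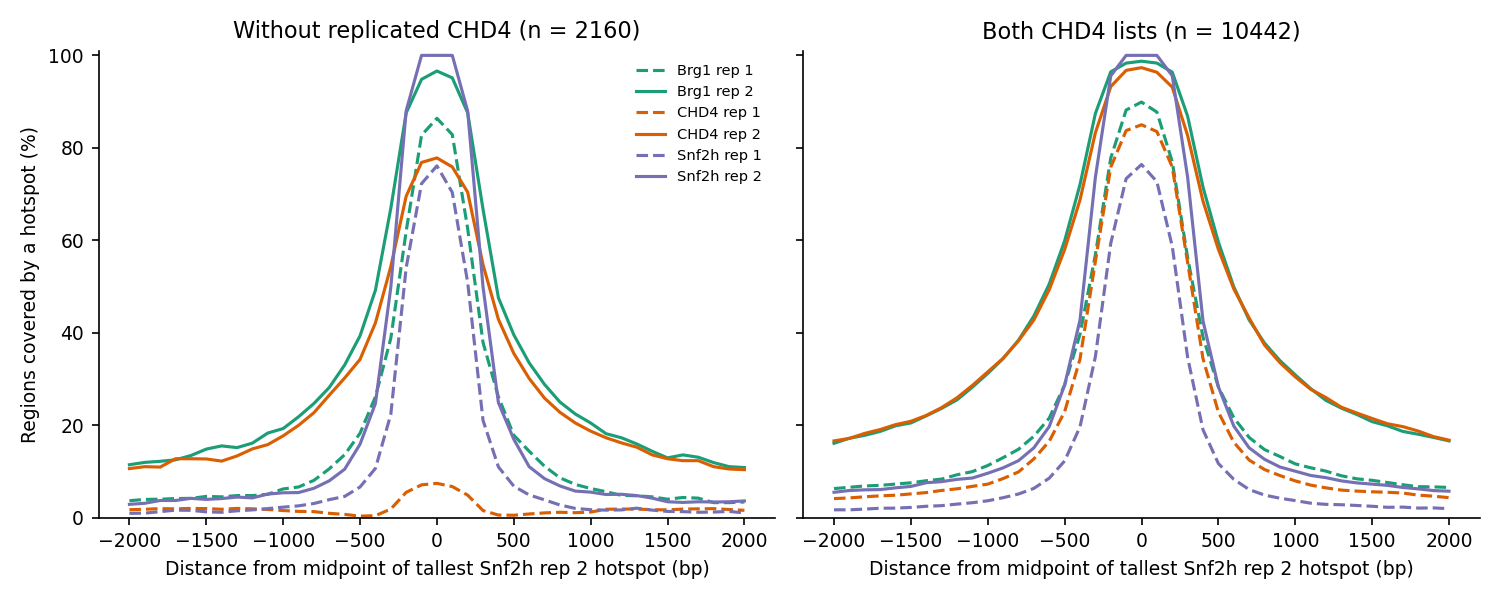
Percentage of regions covered by a hotspot of each library (vertical axis) by distance in bp from the midpoint of the tallest Snf2h replicate 2 hotspot (horizontal axis), for regions without replicated CHD4 (left) and with both CHD4 lists (right). Snf2h replicate 2 is at 100% at the midpoint by construction; CHD4 replicate 1, absent by the choice of most regions on the left, is at 7.45% there and at 85.0% on the right.

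For the 169 regions with no CHD4 hotspot, the nearest one of CHD4 replicate 2 was a median of 2229 bp away (quartiles 703 and 5691), and the nearest one of CHD4 replicate 1 was 23474 bp away. A CHD4 hotspot of either library lay within 1000 bp of 52 of the 169 (30.8%) and within 10000 bp of 154 (91.1%). Of the other 243263 merged regions with no CHD4 hotspot, 27.0% had one within 1000 bp and 88.9% within 10000 bp, which is close to the shares of the 169. The medians to the nearest CHD4 hotspot of either library were 2154 and 2502 bp. The farthest was 79203 bp from its nearest CHD4 hotspot. For the 1819 regions with CHD4 replicate 2 alone, the nearest hotspot of CHD4 replicate 1 was a median of 12960 bp away, and for the 172 with CHD4 replicate 1 alone the nearest of replicate 2 was 1955 bp away. The CHD4 lists differ in length, 39797 against 293135 hotspots, and distances at equal lengths were not computed.

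At the edge of the choice, 20 regions had their missing CHD4 list within 100 bp, and 12 regions with both CHD4 lists had one of them over 50 bp or less of the Snf2h and Brg1 hotspots. The median percentiles of the 20 were 20.1 and 29.0 in the Snf2h libraries and 26.6 and 17.01 in the Brg1 libraries. Those of the 12 were 20.1 and 21.5 in the Snf2h libraries and 21.2 and 35.9 in the Brg1 libraries. Both sets lay under the medians of the 10442.

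Few of the regions without replicated CHD4 lay within 10000 bp of another one. Their median distance to a region with all 6 lists was 44450 bp, and 367 (17.0%) lay within 10000 bp of one. Regions with all 6 lists were a median of 36822 bp from another such region, and 23.3% lay within 10000 bp. The nearest other region without replicated CHD4 was a median of 224677 bp away, and 82 regions (3.80%) had one within 10000 bp. The sets differ in size, 2160 and 10442, and distances at equal numbers were not computed. The 2160 regions fell into 1180 bins of 1 Mb, of which 108 held 4 or more of them. Whether they were more clustered than random placement gives was not tested. The fullest bin, chromosome 2 at 32000001 to 33000000, held 9 of them among 21 regions with all 4 Snf2h and Brg1 lists. Chromosome 4 at 115000001 to 116000000 held 8 among 13, and 3 bins, on chromosomes 7, 15 and 18, held 7 each among 22, 17 and 12. All 38 regions of these 5 bins, which were picked after their counts had been seen, had a CHD4 hotspot, as did 92.2% of all 2160.

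By chromosome, the share of Snf2h and Brg1 regions without replicated CHD4 mostly differed by less than its counting error. It ran from 13.9% (63 of 453, 11.02% to 17.4%) on chromosome 16 and 14.1% (131 of 931, 12.0% to 16.5%) on chromosome 1 to 20.4% (164 of 802, 17.8% to 23.4%) on chromosome 4. The intervals of chromosomes 1 and 4 exclude the genome share of 17.1%, and those of the other 18 chromosomes include it. These intervals cover counting error only and were not adjusted for the number of chromosomes. On X the share was 18.6% (55 of 296, 14.6% to 23.4%), and 2 of those 55 had no CHD4 hotspot. Chromosomes 2, 4 and 11 held 16 each of the 169 regions with no CHD4 hotspot, the highest number on any chromosome. They also held 956, 802 and 945 Snf2h and Brg1 regions, and chromosome 1, with 931, held 5 of the 169. Over all chromosomes the 169 were 1.34% of the Snf2h and Brg1 regions, and shares of them by chromosome were not compared.

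**Figure D5:**
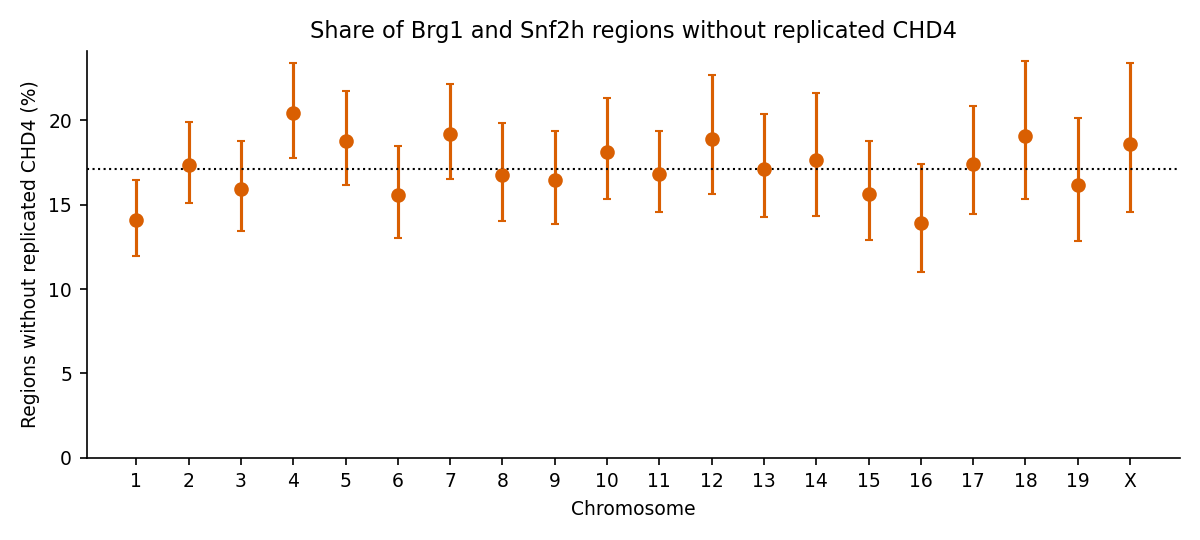
Percentage of Snf2h and Brg1 regions without replicated CHD4 (vertical axis) on each chromosome (horizontal axis), with 95% Wilson intervals. The dotted line marks 17.1%, the share over all chromosomes; chromosome 16 is lowest at 13.9% and chromosome 4 highest at 20.4%.

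The tallest of the regions with no CHD4 hotspot were moderate in height. The first by mean percentile, chromosome 11 at 4650114 to 4650844, had maximum densities of 18.0 and 28.6 in Snf2h replicates 1 and 2, and of 57.9 and 34.5 in Brg1 replicates 1 and 2. Its mean percentile was 48.3 for Snf2h and 69.7 for Brg1, so it stood higher in Brg1. The next, chromosome 3 at 107666627 to 107667338, had 27.7 and 30.0 in the Snf2h libraries and 53.9 and 13.3 in the Brg1 libraries. That region stood higher in Snf2h, at percentile 68.2 against 46.8 for Brg1. The region on chromosome 3 at 108131143 to 108132070 had 18.0 and 50.4 for Snf2h and 52.7 and 15.3 for Brg1. Its replicates disagreed more than its remodelers did, and 35 bp of it was covered by all 4 lists. Chromosome 5 at 139654734 to 139655416 had 42.3 and 36.6 for Snf2h and 25.5 and 7.75 for Brg1. It was one of the Snf2h-high cases, at mean percentile 81.7 for Snf2h and 17.6 for Brg1. The region on chromosome 19 at 4206836 to 4207806 was similar, with percentiles of 78.1 and 19.4. The other 3 of the 8 tallest, were 1 on chromosome 15 (79297010 to 79297832) and 2 on chromosome 3 (88281552 to 88282190, and 65677308 to 65678035), with mean percentiles of 51.9 to 54.6 over the 4 libraries.

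With 1 CHD4 list, the 8 tallest regions reached mean percentiles of 81.1 to 89.7, and all 8 had CHD4 replicate 2. Chromosome 10 at 80945135 to 80945842 had maximum densities of 38.1 and 76.1 in the Snf2h libraries, 129.7 and 41.7 in the Brg1 libraries and 14.8 in CHD4 replicate 2. Chromosome 11 at 96722532 to 96723762 had 38.1 and 62.4 for Snf2h, 132.6 and 47.6 for Brg1 and 18.5 for CHD4 replicate 2. Both stood high in all 4 Snf2h and Brg1 libraries, and their CHD4 values were above the median of 13.6 for regions with both CHD4 lists. Snf2h was highest at chromosome 5 at 139820666 to 139821980, with 60.95 and 129 in the Snf2h libraries, 75.3 and 25.3 in the Brg1 libraries and 10.6 in CHD4 replicate 2. It stood at mean percentile 99.02 for Snf2h and 70.2 for Brg1. This region lies 165250 bp from the Snf2h-high region on chromosome 5 with no CHD4 hotspot. The widest of the 8, chromosome 2 at 167512968 to 167517353, had 27.01 and 68.8 for Snf2h, 93.8 and 35.6 for Brg1 and 17.8 for CHD4 replicate 2. It spans 4386 bp, and 201 bp of it was covered by all 4 lists.

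Single regions showed both orders. The 4 with the highest Snf2h percentile relative to Brg1 differed by 75.6 to 80.2 points. Chromosome 7 at 129275323 to 129276876 had 31.2 and 79.4 in the Snf2h libraries, 15.1 and 8.38 in the Brg1 libraries and 9.64 in CHD4 replicate 2. Chromosome 1 at 196642968 to 196643613 had 30.5 and 55.3 for Snf2h, 19.7 and 5.69 for Brg1 and 15.9 in CHD4 replicate 1. Both had Snf2h percentiles over 85 with Brg1 percentiles of 10.1 and 9.65. At the opposite end, differences were -60.6 to -67.6 points. Chromosome 15 at 8913242 to 8913860 had 11.1 and 13.0 for Snf2h, 102 and 29.7 for Brg1 and 6.42 in CHD4 replicate 2. Chromosome 19 at 16460628 to 16461630 had 10.4 and 15.4 for Snf2h, 93.2 and 30.05 for Brg1 and 13.9 in CHD4 replicate 1. Brg1 percentiles there were 78.0 and 76.9, and Snf2h percentiles were 10.4 and 12.5. These regions were chosen by that difference, so their orders are descriptions.

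The other pairs of remodelers showed how often the remaining partner was missing. Of the 12602 regions with both Snf2h and both Brg1 lists, 17.1% lacked replicated CHD4. Of 12553 regions with both CHD4 and both Snf2h lists, 2111 (16.8%, 16.2% to 17.5%) lacked replicated Brg1, an interval that overlaps the first. Of 23399 with both Brg1 and both CHD4 lists, 12957 (55.4%, 54.7% to 56.01%) lacked replicated Snf2h. With lists of equal length the share without replicated CHD4 was 14.4%, and the shares of the other pairs were not recomputed that way. Regions with none of the remaining partner's hotspots were 7.82% of those without replicated CHD4, 12.5% of those without replicated Brg1 and 25.1% of those without replicated Snf2h. Median widths were 1021, 729 and 1166 bp in the same order.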

How the data were processed

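The authors listed hotspots separately for each of 6 immunoprecipitation libraries, and per the file headers each hotspot has a maximum and an average density (signal, with no scaling named), a Z score and a p-value, which was left unused. CASAVA 1.6 and mm9 are named in the submitters' processing notes without a role. Not given in the sources used here are the caller, its limits, the use of inputs and the immunoprecipitation protocol, since the labels' extraction text describes DNase I digestion. Sample titles gave the groups and the replicate numbers.

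Closed intervals sharing at least 1 bp were merged with Python 3.11.15, numpy 2.4.6 and pandas 2.3.3. The height of a region in a library is its tallest hotspot's maximum density, ranked among the 12602 regions with both Brg1 and both Snf2h lists. Shares have 95% Wilson intervals (scipy 1.17.1). Exact permutations ran over libraries, not regions, and the code was tested on simulated data. Named regions were the 8 of highest mean percentile with no CHD4 hotspot and the 8 with 1 CHD4 list, and the 4 with the largest difference between Snf2h and Brg1 in each direction. The fixed promoter, motif and gene-list counts needed mm9 sequence or annotation and were not run. The regions, rules and lists were chosen with earlier results of these data known. Plots used matplotlib 3.10.9.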

Additional observations from a re-analysis of the deposited data

How the results depend on the processing

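The number of regions without replicated CHD4 was 2160, and 1073 with all lists cut to the 32310 tallest hotspots. Leaving out 1 Snf2h or Brg1 library gave 2407 to 9024. With 1 CHD4 library left out, replication could not be asked, and regions with no hotspot of the remaining CHD4 library were counted. They numbered 342 without CHD4 replicate 1 and 2013 without CHD4 replicate 2. The number with no CHD4 hotspot was 169, 590 at a common Z score of 9.49, and 260 to 1189 with 1 Snf2h or Brg1 library left out. The share of Snf2h and Brg1 regions without replicated CHD4 was 17.1%. It was 28.3% with the taller 50% of each list, 14.4% with lists of equal length, 25.8% at the common Z score and 19.3% with 500 bp windows, and 2.71% to 31.6% with 1 library left out. The lowest was without CHD4 replicate 1, with that changed way of counting, and the highest without Snf2h replicate 1. An overlap of 50% of the shorter hotspot gave 2140 regions and 17.2%. The cause of these changes was not tested.

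The mean height difference from regions with both CHD4 lists (-24.1 points) kept its sign in all alternatives. It was -35.6 to -22.3 with 1 library left out. Both ends were without a CHD4 library, so they describe regions with no hotspot of the remaining one. For the regions with no CHD4 hotspot, an alternative chosen after seeing the data, it was -40.8. The difference of Snf2h and Brg1 percentiles (14.4) was 7.47 to 14.1 with 1 library left out and 9.17 for the regions with no CHD4 hotspot. Average density and Z score as height gave -19.2 and -24.7 for the first and 16.1 and 14.1 for the second. With the replicate number as a block the second was again 14.4 (exact permutation p = 0.5, the smallest 2 pairs allow). With 2 numbers per antibody and no label for a shared batch, the numbers were not taken to pair libraries. Sequencing depth cannot be read from the lists, so no difference could be weighed by it.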
